A study of Mus musculus with 58 samples.

Results

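Mx1, Mx2, Rsad2, Cmpk2 and Rtp4 are antiviral effector genes that type I interferon switches on, and they are described here in 58 mouse liver libraries. They are 5 of the 24537 genes in the count table, found by symbol. They were chosen by their lower counts after ruxolitinib in old livers, so that difference is given as a description without a test.

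Whole livers were taken from male C57BL/6J mice, all of which had received an AAV8 vector whose TBG promoter is active in hepatocytes. The vector carried Myc, a transcription factor that drives growth, or, as control, the red fluorescent protein mApple. Mice were gavaged with vehicle or with ruxolitinib, which inhibits JAK1 and JAK2, at 45 mg/kg 2 times a day for 30 days with a weekend break. The 16 young mice were 4 months old and formed 2 groups, mApple with vehicle (6 libraries) and Myc with ruxolitinib (10). The 42 old mice, 24 or 25 months old, formed 4 groups: mApple with vehicle (8), mApple with ruxolitinib (9), Myc with vehicle (11) and Myc with ruxolitinib (14). The first sequencing batch held the 18 old mice of 25 months, and the second held the 24 old mice of 24 months and all young mice, so batch and age among old mice cannot be told apart. Neither Myc without the drug nor the drug without Myc was analysed here in young mice, so vector and drug cannot be told apart in the young.

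Interferons bind receptors on the cell surface, and the receptor-bound kinases JAK1 and TYK2 then phosphorylate transcription factors such as STAT2. A complex that holds STAT2 and IRF9 binds a DNA motif called the interferon-stimulated response element (ISRE) and raises transcription of effector genes. Mx1 and Mx2 encode dynamin-like GTPases that block virus replication. In C57BL/6 mice and most other inbred strains both genes carry inactivating mutations, so their rows here are readings of transcripts and not of working protein. Rsad2 encodes viperin, an enzyme that turns CTP into a chain-terminating nucleotide, and Cmpk2 encodes a mitochondrial nucleotide kinase that can supply the CTP. Rtp4 encodes a chaperone that helps receptors reach the cell surface and that can also bind viral RNA.

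The 5 genes occupy 3 places in the genome, given in mm10 from the count table. Rsad2 lies on the minus strand at chr12:26442743-26456452 and Cmpk2 on the plus strand at chr12:26469215-26479837. They are read away from each other, with start sites 12.8 kb apart. Mx1 (chr16:97447037-97462905, minus strand) and Mx2 (chr16:97536081-97560901, plus strand) are arranged in the same way, with start sites 73.2 kb apart. Rtp4 lies alone at chr16:23609919-23614222 on the plus strand. The strand setting of the read counting is not given in the sources used here, and the GENCODE annotation has no exon of another gene over the exons of these 5. RefSeq lists Mx1 and Mx2 as transcribed pseudogenes. Of the 75-base windows of Mx1 transcripts, 1.71% also occur in Mx2, so few reads could be shared between them.

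The promoter windows of the head-to-head pair Rsad2 and Cmpk2 are shown because Mx1, Mx2 and Rtp4 had no entry in the promoter table. The windows come from the RefSeq table of GRCm38.p6, 250 bases before to 50 bases after each start site, written 5′ to 3′ on the strand of the gene, and the capitals mark the ISRE match. Rsad2 is at chr12:26456403-26456702 on the minus strand, and Cmpk2 at chr12:26468965-26469264 on the plus strand.
Rsad2: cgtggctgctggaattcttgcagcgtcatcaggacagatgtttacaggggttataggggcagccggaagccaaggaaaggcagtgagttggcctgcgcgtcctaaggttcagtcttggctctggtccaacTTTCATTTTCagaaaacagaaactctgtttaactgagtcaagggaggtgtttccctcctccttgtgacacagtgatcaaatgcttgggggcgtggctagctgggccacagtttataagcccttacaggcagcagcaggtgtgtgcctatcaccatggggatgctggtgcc
Cmpk2: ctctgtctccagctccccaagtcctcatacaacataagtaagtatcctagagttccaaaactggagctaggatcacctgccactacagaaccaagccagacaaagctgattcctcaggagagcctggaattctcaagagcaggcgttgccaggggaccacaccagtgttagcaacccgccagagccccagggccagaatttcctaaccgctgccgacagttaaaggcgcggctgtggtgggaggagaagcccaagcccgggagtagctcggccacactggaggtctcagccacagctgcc

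The ISRE was searched as GAAA, any 2 bases and GAAA again, on both strands. The Rsad2 window holds it as TTTCATTTTC from 120 to 111 bases before the start site, and the Cmpk2 window does not hold these letters. The Cmpk2 window is set on the start at 26469215, whereas RefSeq also gives the gene a start at 26469117, upstream and inside the window. Less sequence before that start was therefore searched, and bases beyond the window were not. Of 32851 such windows in the mouse table, 3.44% hold the motif. The E-box of Myc (CACGTG, in 7.15% of windows) was in neither window. Of the 5 genes, 2 matched the promoter table; Mx1, Mx2 and Rtp4 did not.

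The libraries held 10.68 to 40.98 M counts in exons (median 14.6 M). Values are CPM, the counts per M counts of a library, with TMM scaling, and means are given ± SD. No library pair was identical (0 of 164 pairs within a group and batch). Nothing in the labels says that libraries share an animal, and p-values measure the spread among these samples. Hepatocyte markers were abundant throughout (Alb at 29900 CPM or more). Myc, which checks the vector labels, had group medians of 8.28 CPM in young mApple vehicle, 15.6 in old mApple vehicle and 7.67 in old mApple ruxolitinib livers. Its medians were 50.9 in young Myc ruxolitinib, 37.8 in old Myc vehicle and 32.9 in old Myc ruxolitinib livers. Library 870, labelled old Myc with vehicle, had 6.85 CPM of Myc, within the mApple range. Among the ruxolitinib livers of the first batch, libraries 860 and 861 had 119 and 99.6 CPM of the leukocyte gene Ptprc, where the median library had 12.6. Library 864 had 209 CPM of the neutrophil gene S100a8, where the median was 1.24. Comparisons under ruxolitinib are also given without these 3 libraries and library 865, a set chosen after seeing the data. Library 865 had 20.0 CPM of Ptprc and 30.0 CPM of the macrophage gene Adgre1. Library 868, with 34.3 and 92.3 CPM of these genes, was kept. In bulk tissue, fewer cells of a type and less RNA per cell cannot be told apart.

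Per length of transcript, Rtp4 was the most abundant of the 5 genes in every group and Mx1 the least. In old Myc vehicle livers Rtp4 had a level of 30.4 ± 12.2 CPM per kb (n = 11), Rsad2 12.9 ± 10.5, Cmpk2 9.51 ± 4.67, Mx2 5.77 ± 2.46 and Mx1 2.90 ± 1.61. In young mApple vehicle livers the levels were 9.57 ± 3.31 for Rtp4, 3.13 ± 0.844 for Rsad2, 2.94 ± 0.512 for Mx2, 2.54 ± 0.472 for Cmpk2 and 0.567 ± 0.186 for Mx1 (n = 6). For all 5 genes the highest group mean was that of old Myc vehicle livers, the next that of old mApple vehicle livers and the lowest that of young Myc ruxolitinib livers. Groups next to each other in this order had means within 1 SD intervals that met, except that young mApple vehicle lay clear of old mApple ruxolitinib livers for Rsad2 and Cmpk2. The genes differed in where young mApple vehicle livers stood: above old Myc ruxolitinib livers for Mx2 (7.07 ± 1.23 against 5.68 ± 2.77 CPM) and Rtp4 (15.0 ± 5.19 against 12.9 ± 6.52), and below them for Mx1, Rsad2 and Cmpk2.

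**Figure D1:**
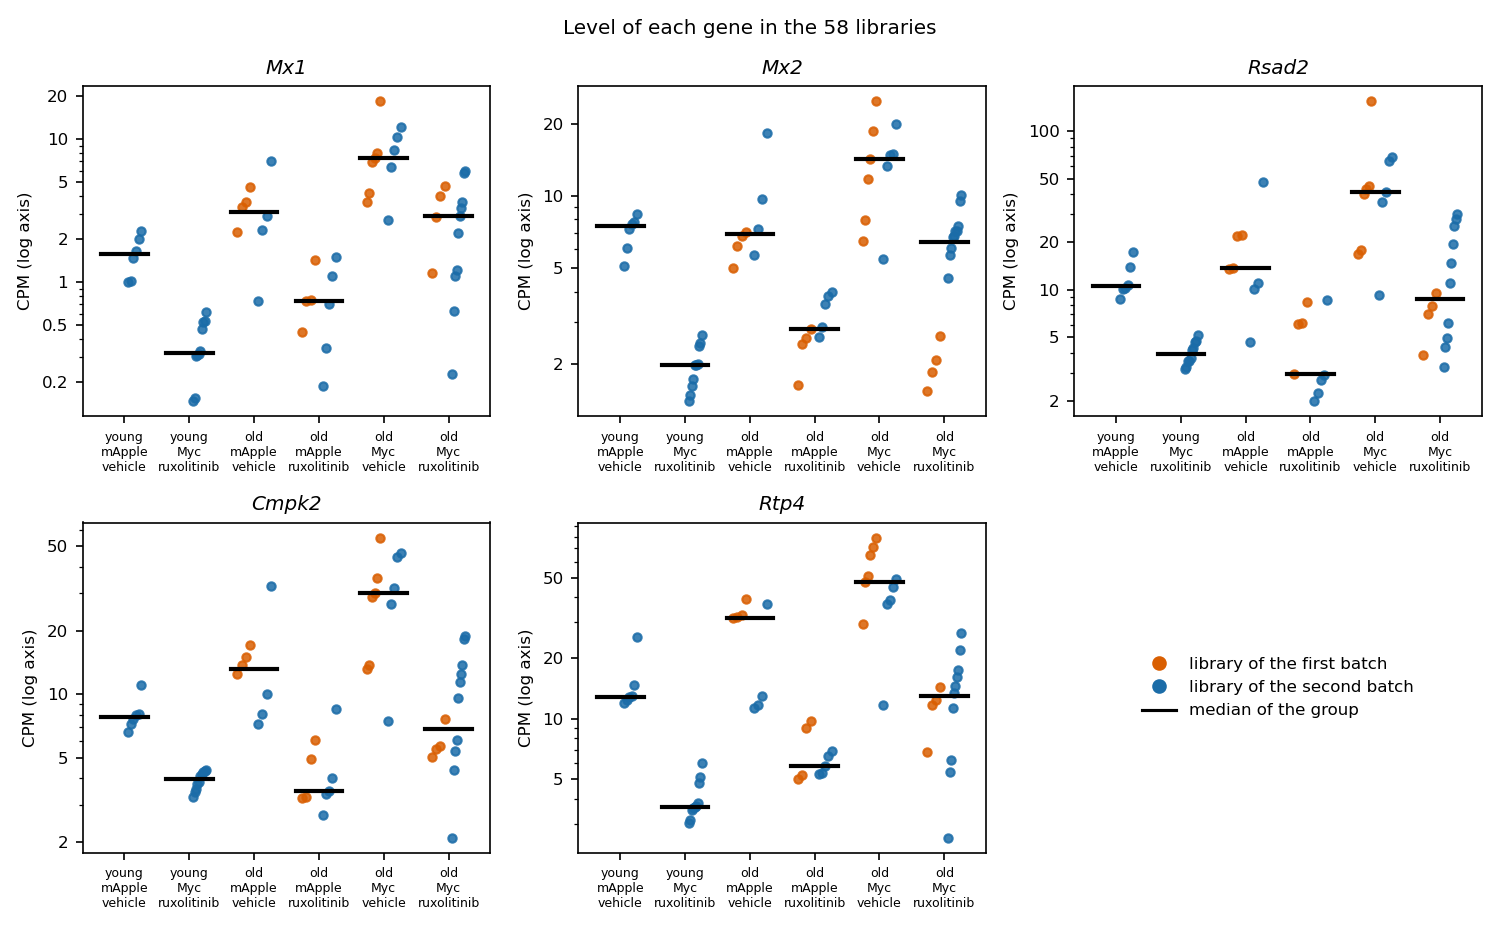
CPM of each gene (log axis) in the 58 libraries by group, with each library as a point coloured by sequencing batch and drawn in order of its value, and the group median as a bar. Old Myc vehicle livers have the highest median in all 5 panels. The lowest median is that of young Myc ruxolitinib livers for Mx1, Mx2 and Rtp4 and of old mApple ruxolitinib livers for Rsad2 (2.96 CPM) and Cmpk2 (3.5 CPM), and the old Myc ruxolitinib livers spread widely, for Rtp4 from 2.56 to 26.7 CPM.

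Mx1, the rarest of the 5, ranged from 0.147 CPM in a young Myc ruxolitinib liver to 18.5 CPM in library 866, an old Myc vehicle liver. Its lowest, median and highest values were 1.01, 1.57 and 2.29 CPM in young mApple vehicle livers and 0.147, 0.322 and 0.619 CPM in young Myc ruxolitinib livers. These young groups did not overlap. In old mApple livers the values were 0.733, 3.12 and 7.06 CPM with vehicle and 0.189, 0.740 and 1.5 CPM with ruxolitinib. In old Myc livers they were 2.73, 7.36 and 18.5 CPM with vehicle and 0.228, 2.88 and 5.99 CPM with ruxolitinib. Old vehicle and ruxolitinib livers overlapped under both vectors. In 14 of the 58 libraries Mx1 had fewer than 10 counts, so its low values are coarse.

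Mx2, the companion GTPase gene, ranged from 1.4 to 24.9 CPM, 17.8-fold where Mx1 ranged 126-fold. Young mApple vehicle livers had 5.11, 7.5 and 8.44 CPM (lowest, median, highest) and young Myc ruxolitinib livers 1.4, 1.98 and 2.63 CPM, again without overlap. Old mApple livers had 5.03, 6.96 and 18.4 CPM with vehicle and 1.63, 2.8 and 3.99 CPM with ruxolitinib, and these groups did not overlap either. Old Myc livers had 5.47, 14.3 and 24.9 CPM with vehicle and 1.55, 6.41 and 10.1 CPM with ruxolitinib, which overlapped. The old Myc ruxolitinib livers split by batch: the 4 of the first batch had 1.55, 1.85, 2.08 and 2.61 CPM, and the 10 of the second had 4.57 to 10.1 CPM.

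Rsad2 (viperin) had the widest range in absolute terms, from 1.98 CPM in an old mApple ruxolitinib liver to 155 CPM in library 866. Young mApple vehicle livers had 8.69, 10.5 and 17.3 CPM (lowest, median, highest) and young Myc ruxolitinib livers 3.14, 3.95 and 5.15 CPM. Old mApple livers had 4.67, 13.7 and 48.0 CPM with vehicle and 1.98, 2.96 and 8.63 CPM with ruxolitinib. The young groups were separate and the old mApple groups overlapped. Old Myc livers had 9.32, 41.1 and 155 CPM with vehicle and 3.26, 8.74 and 29.9 CPM with ruxolitinib. The SD in old Myc vehicle livers was 39.7 CPM around a mean of 48.8 CPM, and the 2 groups overlapped.

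Cmpk2, the nucleotide kinase next to Rsad2, had 6.65, 7.84 and 11 CPM (lowest, median, highest) in young mApple vehicle livers and 3.26, 3.97 and 4.38 CPM in young Myc ruxolitinib livers, with no overlap. Old mApple livers had 7.2, 13.2 and 32.6 CPM with vehicle and 2.7, 3.5 and 8.53 CPM with ruxolitinib. Old Myc livers had 7.45, 30.1 and 55 CPM with vehicle and 2.1, 6.84 and 18.9 CPM with ruxolitinib. Both old pairs of groups overlapped.

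Rtp4, the receptor chaperone, had 11.9, 12.8 and 25.5 CPM (lowest, median, highest) in young mApple vehicle livers and 3.03, 3.64 and 6.03 CPM in young Myc ruxolitinib livers. Old mApple livers had 11.3, 31.7 and 39.0 CPM with vehicle and 5.01, 5.81 and 9.67 CPM with ruxolitinib. Neither pair of groups overlapped. Old Myc livers had 11.7, 47.6 and 79.2 CPM with vehicle and 2.56, 12.9 and 26.7 CPM with ruxolitinib, which overlapped. Among old mApple vehicle livers the first batch had 31.5 to 39.0 CPM of Rtp4, while 3 of the 4 libraries of the second batch had 11.3 to 13.0 CPM and library 1136 had 37.2 CPM.

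The ruxolitinib differences that chose the genes are given for both vectors. On the log2 scale, with standard errors from edgeR, old mApple livers had -2.07 ± 0.41 for Mx1, -1.53 ± 0.20 for Mx2, -1.99 ± 0.41 for Rsad2, -1.73 ± 0.30 for Cmpk2 and -1.91 ± 0.23 for Rtp4. Old Myc livers had -1.44 ± 0.38 for Mx1, -1.63 ± 0.29 for Mx2, -2.08 ± 0.45 for Rsad2, -1.87 ± 0.33 for Cmpk2 and -1.77 ± 0.31 for Rtp4. Of all genes tested, 0.391% were called in old mApple livers and 0.545% in old Myc livers at an adjusted p of 0.05. Mx2 and Rtp4 were the 2 of 5 genes without overlap in old mApple livers, where 0.111% of all genes were lower without overlap. In old Myc livers 0 of 5 were without overlap, beside 0.00727% of all genes. Without libraries 860, 861, 864 and 865 the 5 differences ran from -2.02 to -1.49 in old mApple livers and from -1.99 to -1.39 in old Myc livers. Within batches the old mApple values ran from -2.34 to -1.42. In old Myc livers Mx2 differed most between batches, with -2.73 ± 0.40 in the first and -0.94 ± 0.22 in the second, and the other 4 genes ran from -2.84 to -1.29 in the first and from -1.61 to -1.42 in the second.

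**Figure D2:**
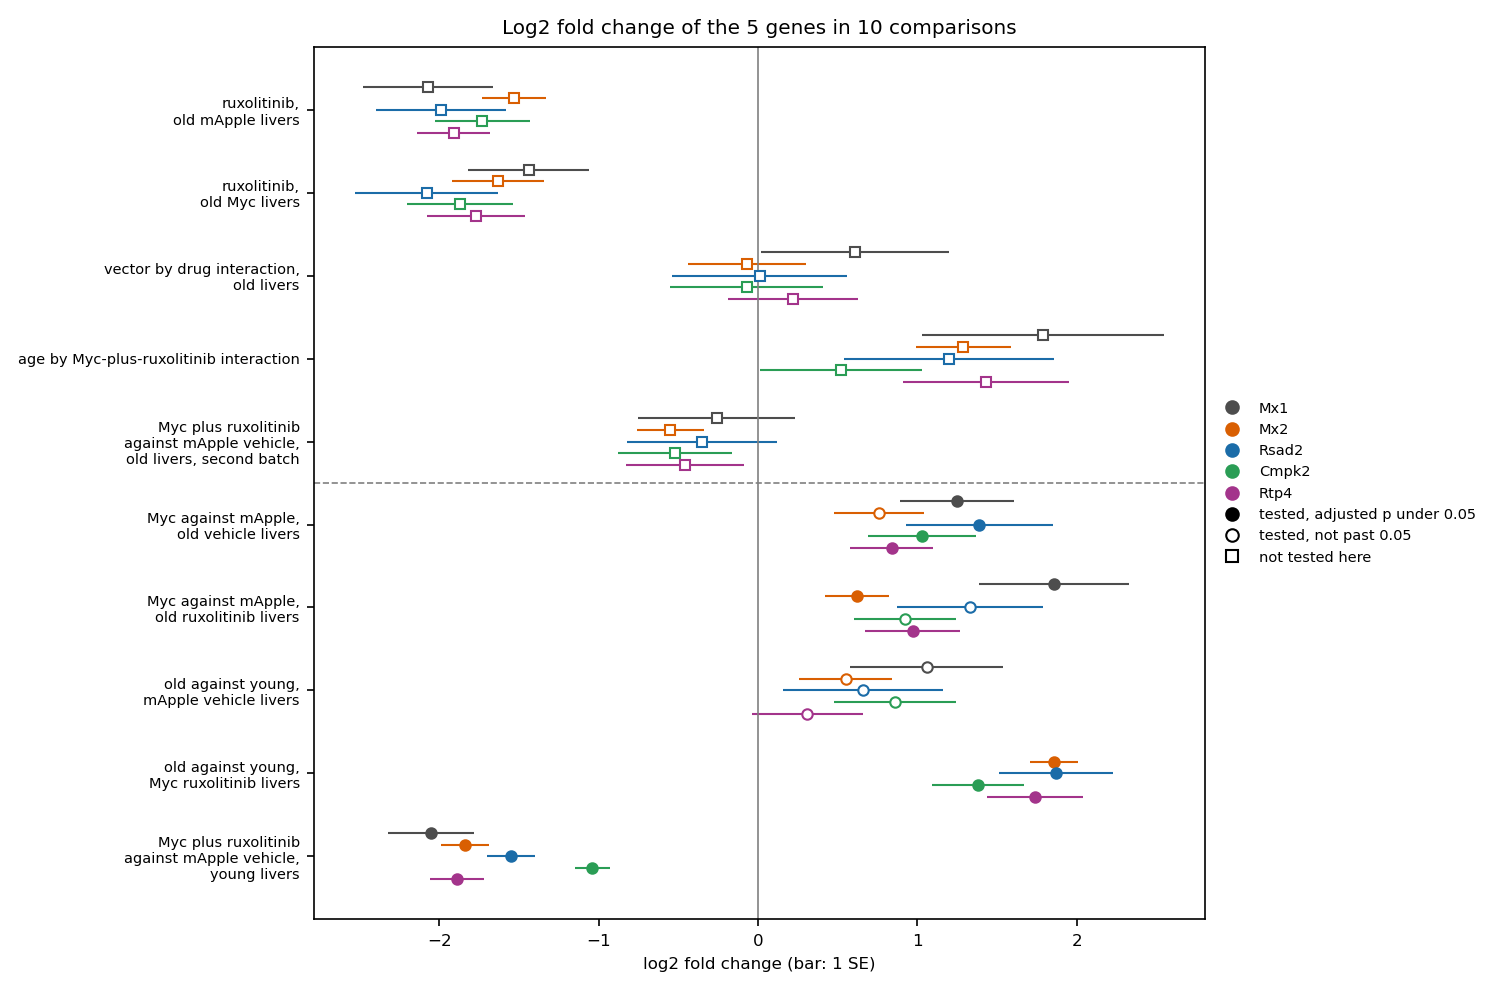
Log2 fold change of the 5 genes (points, bars of 1 SE) in 10 comparisons by edgeR, with filled circles at an adjusted p under 0.05, open circles for tested values that miss it and squares for the comparisons that chose the genes or are built on them (Mx1 in the young comparison passed the count filter through the vehicle group alone). Values of Myc against mApple lie above 0 for all 5 genes in both old comparisons, and the age comparison shows 1.38 to 1.87 under Myc plus ruxolitinib beside 0.31 to 1.06 in mApple vehicle livers.

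The comparisons that follow were tested with edgeR's quasi-likelihood test, with p-values adjusted over all genes tested, and all but the young comparison reuse livers of the ruxolitinib comparisons. They also share control groups with one another, so they are not independent. Because the genes were chosen on values of the reused livers, the p-values of those comparisons can be biased by that choice. The size of that bias was not estimated. The first asks what Myc does to these genes in old livers without the drug. Under vehicle, 4 of the 5 genes were higher with Myc (n = 11) than with mApple (n = 8), where 10.8% of all genes tested were called higher. Mx1 rose by 1.25 ± 0.36 on the log2 scale (adjusted p = 0.0200), or 2.37-fold. Rsad2 rose by 1.39 ± 0.46 (adjusted p = 0.0407), Cmpk2 by 1.03 ± 0.34 (adjusted p = 0.0385) and Rtp4 by 0.84 ± 0.26 (adjusted p = 0.0283). Mx2 had 0.76 ± 0.28 and did not pass (adjusted p = 0.0622). The groups overlapped for all 5 genes, and 0.908% of all genes were higher without overlap. Libraries 1148, 858 and 870 were the 3 lowest of the Myc group for every gene but Rtp4.

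These calls lie near the threshold. In the first batch alone the 5 values ran from 0.74 to 1.55, in the second alone from 0.41 to 1.32, and 0 of 5 passed in either. Without library 1136, an old mApple vehicle liver with the highest value of its group for 4 of the 5 genes, the values ran from 1.0 to 1.87 and 5 of 5 passed, as they did without library 870, 858 or 1148. Without library 1135, 1137 or 1138, the other mApple vehicle livers of the second batch, only Mx1 passed. Rsad2 and Cmpk2 were each lost without any 1 of 12 of the 19 libraries (1135, 1137, 1138, 1144, 1145, 1147, 854, 855, 862, 863, 866, 871), with adjusted p up to 0.0784.

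Under ruxolitinib, Myc livers (n = 14) again had higher values than mApple livers (n = 9), and 3 of 5 genes passed, where 8.40% of all genes tested were called higher. Mx1 rose by 1.86 ± 0.47 (adjusted p = 0.00954), or 3.63-fold, Rtp4 by 0.97 ± 0.30 (adjusted p = 0.0295) and Mx2 by 0.62 ± 0.20 (adjusted p = 0.0391). Rsad2 had 1.33 ± 0.46 (adjusted p = 0.0530) and Cmpk2 0.92 ± 0.32 (adjusted p = 0.0565), both just short of the threshold. All 5 pairs of groups overlapped, and 0.207% of all genes were higher without overlap. Mx1 reached the level of the count filter in 6 of 9 mApple and 13 of 14 Myc livers, and the other 4 genes reached it in every library.

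Values by batch were not alike, although the difference between batches was not tested. In the second batch alone the values were 1.83 ± 0.66 for Mx1, 1.09 ± 0.18 for Mx2, 1.99 ± 0.59 for Rsad2, 1.20 ± 0.45 for Cmpk2 and 1.18 ± 0.41 for Rtp4. In the first batch alone they were 1.92 ± 0.50 for Mx1, -0.22 ± 0.28 for Mx2, 0.27 ± 0.37 for Rsad2, 0.43 ± 0.27 for Cmpk2 and 0.64 ± 0.31 for Rtp4. Mx1 had about the same value in both batches, and Mx2 had the opposite sign in the first. Without libraries 860, 861, 864 and 865, only Mx2 passed (0.75 ± 0.22, adjusted p = 0.0255), and Mx1 had 1.66 ± 0.56 (adjusted p = 0.0506). Without library 1139, 1141, 1142 or 1143, all mApple ruxolitinib livers of the second batch, only Mx1 passed. The call of Mx2 was lost without any 1 of 13 of the 23 libraries (1139, 1140, 1141, 1142, 1143, 1150, 1151, 1152, 1153, 1156, 1157, 860, 865). Rsad2 passed without library 1140, 1149, 1154, 1155, 1158, 856 or 869, and Cmpk2 without 1140, 1149, 1154, 1155 or 857.

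The Myc difference under ruxolitinib minus that under vehicle was estimated as an interaction in all 42 old livers. The same value is the ruxolitinib difference under Myc minus that under mApple, the contrasts that chose the genes, so it is a description without a test. The interaction was 0.61 ± 0.59 for Mx1 (95% interval -0.54 to 1.76), -0.07 ± 0.37 for Mx2 (-0.79 to 0.66), 0.01 ± 0.55 for Rsad2 (-1.07 to 1.08), -0.07 ± 0.48 for Cmpk2 (-1.0 to 0.86) and 0.22 ± 0.41 for Rtp4 (-0.59 to 1.02). Each interval held 0, and each also held differences of 0.54 log2 units in either direction. Without library 1136 the values ran from -0.32 for Rsad2 to 0.35 for Mx1.

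Pathway genes around the 5 were taken from a list of 74 interferon genes, 73 of them in the table. Under vehicle, where 10.8% of all genes tested were called higher and 8.01% lower, 24 of 64 tested list genes were higher and 3 lower with Myc. Their median log2 fold change was 0.34 beside -0.02 for all genes. Effectors made up 21 of the 24, among them Ifi44 (2.01 ± 0.49), the RNA-sensing synthetase gene Oas1a (1.73 ± 0.39) and Bst2, which tethers virus to the cell (0.96 ± 0.18). The transcription factor gene Irf7 (1.19 ± 0.29) and the feedback protease gene Usp18 (1.31 ± 0.34) rose too. The kinase genes Jak1 (-0.27 ± 0.07) and Jak2 (-0.23 ± 0.07) and the factor gene Irf5 (-0.42 ± 0.09) were the 3 that fell. Under ruxolitinib, where 8.4% of all genes tested were called higher and 5.96% lower, 19 of 65 list genes were higher and 1 lower with Myc. Their median was 0.42 beside 0.01 for all genes. Irf7 (1.85 ± 0.45) and Irf9, the DNA-binding subunit of the ISRE complex (0.67 ± 0.18), were among those that rose.

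The ligand genes on the list were close to the limit of the assay. Ifna1, Ifna2, Ifna4, Ifne, Ifnl2 and Ifnl3 had 0 counts in all 58 libraries, Ifnb1 in 54 and Ifng in 27. A count of 0 allows up to 3 counts, which is 0.281 CPM in the smallest library and 0.0732 CPM in the largest, for counting error only. None of the 8 ligand genes passed the count filter in any comparison. The median summed level of the listed ligands was 0.0982 CPM in old mApple vehicle and 0.0656 CPM in old Myc vehicle livers. In these groups 7 and 6 of the 8 genes were at 0 in every library, and in old mApple vehicle livers the sum was that of Ifng alone.

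Markers of other cell types were read beside the Myc comparisons. Under vehicle, 4 of 5 sinusoidal endothelial genes and 3 of 8 hepatocyte genes were lower with Myc, where 8.01% of all genes tested were. There 0 of 8 Kupffer cell, 0 of 5 leukocyte and 0 of 4 tested neutrophil genes passed. Under ruxolitinib, 2 of 5 sinusoidal endothelial, 2 of 8 hepatocyte and 1 of 4 bile duct genes were lower, where 5.96% of all genes tested were. Again 0 of 8 Kupffer cell, 0 of 5 leukocyte and 0 of 4 tested neutrophil genes passed. The summed leukocyte level had overlapping ranges in old livers under vehicle, 57.3 to 147 CPM with mApple and 57.7 to 158 CPM with Myc. Under ruxolitinib it ran from 37.7 to 324 CPM with mApple and from 29.8 to 1140 CPM with Myc. Of 5 plasmacytoid dendritic cell genes, Cox6a2 was at 0 in 27 libraries, Klk1 in 18, Siglech in 3 and Ccr9 in 1. The part of these cells in the results was not tested.

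**Figure D3:**
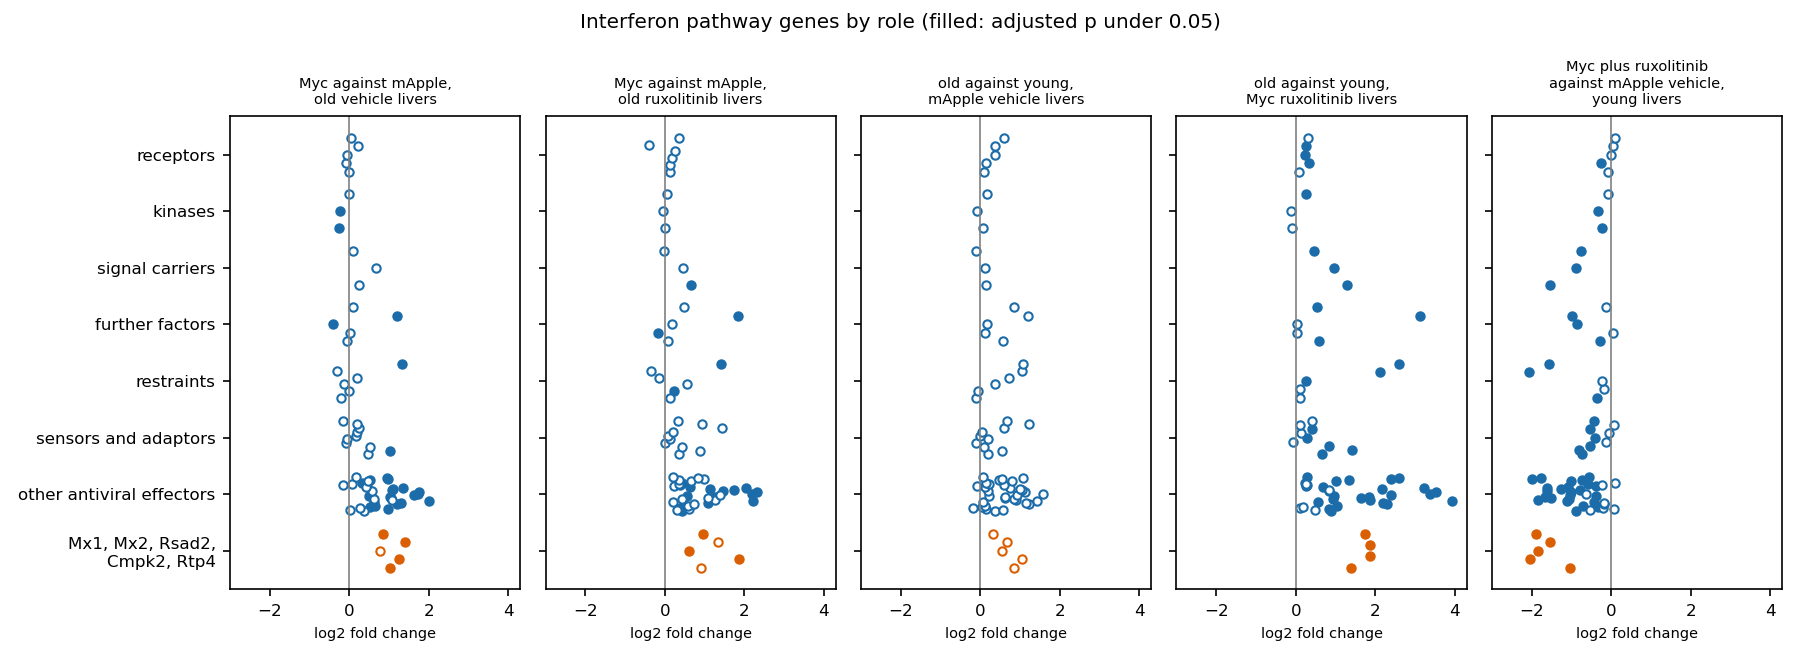
Log2 fold change of interferon pathway genes by role (blue) and of the 5 genes (orange) in 5 tested comparisons, filled where the adjusted p was under 0.05. Effectors lie to the right in the Myc and age comparisons and to the left in the young comparison, where 42 of 62 list genes were lower, while receptors and kinases have medians between -0.23 and 0.36.

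The age comparison in control livers used mApple vehicle livers of the second batch, 4 old against 6 young. Old livers 1135, 1136, 1137 and 1138 had 2.3, 7.06, 0.733 and 2.9 CPM of Mx1, 5.68, 18.4, 9.73 and 7.3 CPM of Mx2, and 10.1, 48.0, 4.67 and 11.1 CPM of Rsad2. They had 8.04, 32.6, 7.2 and 10 CPM of Cmpk2 and 13.0, 37.2, 11.3 and 11.7 CPM of Rtp4. Library 1136 was highest for all 5 genes. Library 1137 lay below the young range for Mx1, Rsad2 and Rtp4 and above it for Mx2. Libraries 1135 and 1138 lay within or near the young range, with Mx1 above it. Library 1136 also had 66.1 CPM of Adgre1, where the other 7 old mApple vehicle livers had 10.8 to 30.0, and 30.6 CPM of Ptprc, where they had 10.1 to 21.1. The log2 fold changes were 1.06 ± 0.48 for Mx1, 0.55 ± 0.29 for Mx2, 0.66 ± 0.50 for Rsad2, 0.86 ± 0.38 for Cmpk2 and 0.31 ± 0.35 for Rtp4. By edgeR 0 of 5 genes passed, where 1.10% of all genes did, with adjusted p from 0.270 to 0.674. Mx1 (p = 0.0461) and Cmpk2 (p = 0.0443) had an unadjusted edgeR p under 0.05, beside 17.8% of all genes, and DESeq2 called 0 of 5. Without library 1136 the values ran from -0.46 to 0.34, with Rsad2 and Rtp4 below 0. Of 64 list genes 0 passed here, with a median of 0.37 beside 0.00 for all genes. Of cell markers 3 of 3 tested neutrophil, 1 of 5 leukocyte, 1 of 4 T and NK cell and 1 of 4 B and plasma cell genes were higher in the old. Of all genes tested, 0.859% were called higher there. The part of these cells in the values of the 5 genes was not tested.

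The same age comparison was made in Myc ruxolitinib livers. Old livers (n = 10, second batch) had higher levels than young livers (n = 10) for the 4 genes that passed the count filter, where 18.1% of all genes tested were called higher. Mx2 rose by 1.86 ± 0.15 (adjusted p = 1.88e-08), or 3.62-fold, and its groups did not overlap (1.61% of genes were higher without overlap). Rsad2 rose by 1.87 ± 0.36 (adjusted p = 0.000587), Cmpk2 by 1.38 ± 0.29 (adjusted p = 0.00109) and Rtp4 by 1.74 ± 0.30 (adjusted p = 0.000219). These 3 genes overlapped through the lowest old livers, such as library 1154 with 2.1 CPM of Cmpk2 and 2.56 CPM of Rtp4. Mx1 did not pass the filter: it reached 0.763 CPM in 0 of 10 young and 8 of 10 old livers, with 0.147 to 0.619 CPM in the young and 0.228 to 5.99 CPM in the old.

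Of 62 list genes 43 were higher in old than in young Myc ruxolitinib livers and 0 lower, with a median of 0.62 beside 0.02 for all genes. The signal carrier gene Stat2 rose by 0.46 ± 0.09 and Irf9 by 1.30 ± 0.15. Irf7 (3.14 ± 0.38), Usp18 (2.60 ± 0.27), Oas1a (3.38 ± 0.44) and Ifi44 (3.93 ± 0.57) rose by more, in log2 units, than the 1.38 to 1.87 of the 4 genes tested. Some immune cell markers were higher in the old too: 3 of 5 leukocyte, 2 of 2 tested neutrophil and 2 of 2 tested B and plasma cell genes. Of all genes tested, 18.1% were called higher. Among hepatocyte genes Alb (0.47 ± 0.13) and Apoa1 (0.48 ± 0.12) were higher and Cps1 (-0.34 ± 0.10) and Hnf4a (-0.24 ± 0.07) lower. Of 8 Kupffer cell genes 1 was higher, with a median summed level of 223 CPM in the old and 209 CPM in the young. Of 5 sinusoidal endothelial genes 2 were lower, where 15.6% of all genes tested were. Their median summed level was 137 CPM in the old and 191 CPM in the young. The summed leukocyte level was 29.8 to 97.1 CPM in the old and 27.9 to 50.8 CPM in the young, and the summed neutrophil level 4.27 to 17.4 against 2.07 to 5.26 CPM. Myc itself was lower in the old, by -0.70 ± 0.10 (adjusted p = 3.33e-05). The part of these cells and of the Myc level in the age result was not tested.

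In young livers, Myc with ruxolitinib (n = 10) was set against mApple with vehicle (n = 6), a comparison that shares no liver with those that chose the genes. Mx2, Rsad2, Cmpk2 and Rtp4, which reached the filter level in all 16 livers, were lower, where 14.0% of all genes tested were called lower. Mx2 fell by 1.84 on the log2 scale (SE 0.15, adjusted p = 4.75e-08), Rtp4 by 1.89 (SE 0.17, adjusted p = 2.46e-07), Rsad2 by 1.55 (SE 0.15, adjusted p = 3.35e-07) and Cmpk2 by 1.04 (SE 0.11, adjusted p = 1.55e-06). The groups did not overlap for any of the 4, and 2.94% of genes were lower without overlap. Mx1 passed the filter through the vehicle group alone (6 of 6 livers against 0 of 10), so its value of -2.05 ± 0.27 is a description. The combined difference ran from 2.06-fold lower for Cmpk2 to 3.70-fold lower for Rtp4.

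Of 62 list genes 42 were lower in young Myc ruxolitinib livers and 0 higher, with a median of -0.54 beside -0.01 for all genes. The signal carriers Stat2 (-0.77 ± 0.08) and Irf9 (-1.53 ± 0.09) fell, as did the feedback inhibitor gene Socs3 (-2.06 ± 0.30) and the effector genes Ifit1 (-1.84 ± 0.18) and Xaf1 (-1.99 ± 0.21). Among cell markers 0 of 8 Kupffer cell, 0 of 5 leukocyte and 3 of 8 hepatocyte genes were lower, with Alb at -0.85 ± 0.14. The 1 tested T and NK cell gene and the 1 tested B and plasma cell gene were lower too, and the part of these cells was not tested.

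The same contrast in old livers of the second batch (10 Myc ruxolitinib, 4 mApple vehicle) is a description, because it combines groups that chose the genes. It had -0.26 ± 0.49 for Mx1, -0.55 ± 0.21 for Mx2, -0.35 ± 0.47 for Rsad2, -0.52 ± 0.36 for Cmpk2 and -0.46 ± 0.37 for Rtp4. Without library 1136, 4 of these 5 signs turned: Mx1 had 0.46, Rsad2 0.78, Cmpk2 0.29 and Rtp4 0.18, and Mx2 had -0.08. The old minus the young difference, which is also the difference between both age comparisons above, is built on that contrast and is likewise a description. It was 1.79 ± 0.76 for Mx1, 1.29 ± 0.30 for Mx2, 1.20 ± 0.66 for Rsad2, 0.52 ± 0.51 for Cmpk2 and 1.43 ± 0.52 for Rtp4, above 0 for all 5 genes. Without library 1136 the values ran from 1.33 for Cmpk2 to 2.51 for Mx1. Mx1 reached the filter level of 0.685 CPM in 0 of 10 young Myc ruxolitinib livers. Whether the age comparisons or the Myc plus ruxolitinib comparisons differ from each other was therefore not tested.

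Within groups the 5 genes rose and fell together from liver to liver. Each library's log2(CPM + 1) was taken as its deviation from the mean of its group and batch, and 10 pairs of genes were compared over 58 libraries. The closest pair was Rsad2 and Cmpk2, the head-to-head neighbours whose promoter windows are printed above, with Pearson's r = 0.92 and Spearman's rho = 0.89. The loosest was Mx2 and Rtp4 with r = 0.58 (rho = 0.54, permutation p = 0.00022 for r and 0.00017 for rho). All 10 pairs had adjusted permutation p of 0.00022 or less, and 1e-05 is the smallest that 100000 permutations can give. Leaving out the 2 libraries farthest from the median of the first gene left r between 0.54 and 0.91. Within the first batch r ran from 0.49 (Rsad2 and Rtp4) to 0.88 (Rsad2 and Cmpk2), and within the second from 0.61 to 0.94.

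Old and young livers were not alike in this. In the 42 old livers all 10 pairs had r between 0.64 and 0.93. In the 16 young livers Rsad2 and Cmpk2 still had r = 0.74 and Mx1 and Cmpk2 r = 0.69. Mx1 had r = 0.54 with Mx2, 0.37 with Rsad2 and 0.36 with Rtp4, and Mx2 had 0.32 with Cmpk2 and 0.26 with Rsad2. The lowest values were those of Rtp4 with Mx2 (0.04), Cmpk2 (-0.14) and Rsad2 (-0.24). Library 1134, a young mApple vehicle liver, held the highest Rtp4 of its group (25.5 CPM) with 10.7 CPM of Rsad2, close to the group median of 10.5. The difference in r between old and young livers was not tested, and the young values span a narrower range. Library 866 was the highest of its group and batch for all 5 genes, as was library 1136 among old mApple vehicle livers of the second batch, and library 1148 was the lowest for all 5 among old Myc vehicle livers of the second batch.

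**Figure D4:**
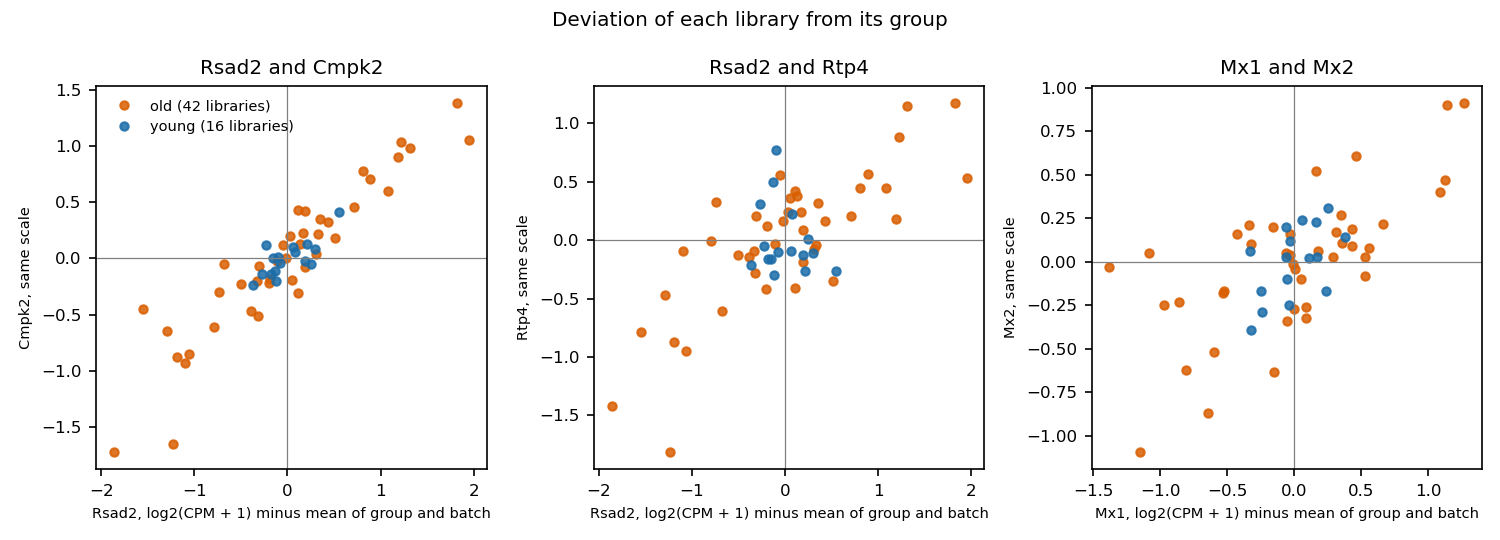
Deviation of each library from the mean of its group and batch, in log2(CPM + 1), for 3 pairs of genes, with old livers in orange and young livers in blue. Old livers follow a line from low to high in all 3 panels, and young livers form a tight cloud that follows Cmpk2 but not Rtp4 along Rsad2.

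Over all libraries the ratio of the Mx pair ranged more widely than that of Rsad2 and Cmpk2, and neither ratio was fixed. Mx1 had fewer than 10 counts in 14 of the 58 libraries, so low ratios of the Mx pair are coarse. Per length, Mx1 was below Mx2 in 55 of 58 libraries, with a median ratio of 0.171 in young mApple vehicle, 0.172 in young Myc ruxolitinib, 0.347 in old mApple vehicle and 0.449 in old Myc vehicle livers. The exceptions were libraries 860, 861 and 868, all old Myc ruxolitinib livers of the first batch, with ratios of 1.33, 2.19 and 1.19. The remaining liver of that group and batch, 869, had the lowest at 0.650, and the 10 of the second batch ran from 0.0289 to 0.528. The batches thus did not overlap. Libraries 860, 861 and 868 had 119, 99.6 and 34.3 CPM of Ptprc and 421, 249 and 92.3 CPM of the macrophage gene Adgre1, where the median library had 19.4 CPM, and the part of these cells in the ratio was not tested. Rsad2 over Cmpk2 stayed between 0.452 and 2.37 in all 58 libraries, with group medians of 0.761 to 1.15.

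**Figure D5:**
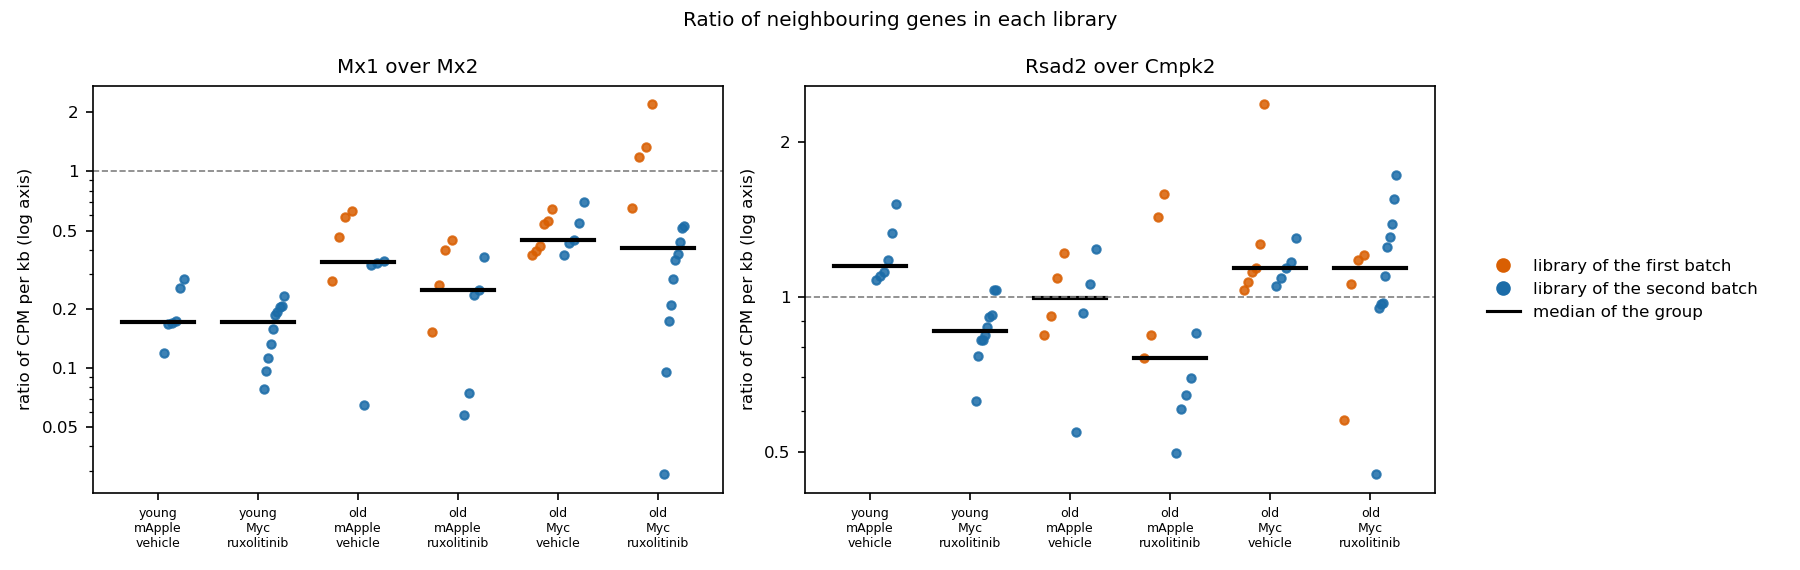
Ratio of CPM per kb (log axis) of Mx1 over Mx2 and of Rsad2 over Cmpk2 in each library by group, coloured by batch and drawn in order of value, with the group median as a bar and a dashed line at 1. Mx1 exceeds Mx2 in 3 libraries, all first-batch old Myc ruxolitinib livers, while Rsad2 over Cmpk2 runs from 0.452 to 2.37.

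Across the whole transcriptome, the 4 genes whose deviations were most like each of the 5 were ranked by Pearson's r over the 58 libraries among 12588 genes, for which the median r was -0.03 to -0.01. For Rsad2 these were Ifit1 (r = 0.93), Ifit3 (0.92), Ifit3b (0.89) and Oasl1 (0.89). For Cmpk2 they were Ifit3 (0.92), Ifit1 (0.92), Ifit3b (0.92) and Ifi44 (0.88), and for Mx1 they were Ifit3b (0.88), Ifit1 (0.88), Ifit3 (0.86) and Oasl1 (0.85). Mx2 and Rtp4 had other closest genes. Those of Mx2 were Eif2ak2, the RNA-activated kinase gene (0.77), Parp12 (0.77), Parp9 (0.73) and the immunity-related GTPase gene Irgm1 (0.73). Those of Rtp4 were Ifi44 (0.9), Irf9 (0.89), Xaf1 (0.87) and Oasl2 (0.85). These correlations describe libraries that share groups and a normalization, and they carry no p.

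The nearest expressed genes on the chromosome were read beside the 5. Tmprss2 lies 3.8 kb from Mx2 and encodes a membrane protease. It was higher in old than in young Myc ruxolitinib livers (1.06 ± 0.23, adjusted p = 0.00165), where 18.1% of all genes were called higher. It was lower in young Myc ruxolitinib than mApple vehicle livers (-0.57 ± 0.20, adjusted p = 0.0427), where 14.0% were called lower. Bace2 lies 4.1 kb from Mx1 and had the opposite direction to Mx1 with Myc. It had -0.43 ± 0.13 under vehicle (adjusted p = 0.0313) and -0.58 ± 0.16 under ruxolitinib (adjusted p = 0.0156). Of all genes tested, 8.01% and 5.96% were called lower there. Bace2 was also lower in old than in young Myc ruxolitinib livers (-0.44 ± 0.12, adjusted p = 0.00747), where 15.6% of all genes were. Rnf144a lies 27.5 kb from Rsad2 and was lower with Myc under ruxolitinib (-0.62 ± 0.19, adjusted p = 0.0355) and in young Myc ruxolitinib against mApple vehicle livers (-0.43 ± 0.14, adjusted p = 0.0333). Masp1 and Bcl6, which lie 89.3 and 350.8 kb from Rtp4, and Colec11, which lies 2114.3 kb from Cmpk2, passed in none of the comparisons.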

How the data were processed

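Liver polyA RNA of 58 mice was sequenced as paired reads. The deposited table holds estimated counts per gene in exons, made by the authors with STAR and HOMER on GRCm38 (mm10), per the submitters' processing notes, with versions and strand setting not given in the sources used here. It lists 1 transcript per gene, and 29.9% of the deposited values were not whole (steps of 0.5). Values were rounded, and 0 value columns were left unused. Reads shared by related genes can be split.

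Samples were grouped by their labels. Each comparison was fitted with edgeR 4.0.16 (quasi-likelihood, TMM scaling, genes kept by filterByExpr at a minimum count of 10, batch as a covariate where both batches entered) in R 4.3.3, with Benjamini-Hochberg adjustment over all genes and a threshold of 0.05. Standard errors are the log2 fold change over the root of F. Correlations used log2(CPM + 1) and 100000 permutations in Python 3.11.15 with scipy 1.17.1. Zero counts have a floor of 3 counts.

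The 5 genes, the pathway and marker lists and the tests were chosen with earlier results of these data known. The text names the 5 genes, Myc, single cell markers, all ligands, pathway genes past the threshold in a comparison, the nearest expressed gene on each side, and the 4 genes most correlated with each member (mean log2(CPM + 1) of at least 1, predicted genes and Rik names left out). On simulated counts with 200 changed genes, a log2 change of 1 was found for 79% of genes in the Myc comparison under vehicle, 66% in the mApple age comparison, 90% in the Myc ruxolitinib age comparison and 94% in the young comparison. The changed genes were drawn at random from all genes, each with its own spread, and no batch difference was simulated. The rates for the 5 genes themselves were not estimated. Both interactions had been planned as tests and are given as descriptions, because they are built on contrasts that chose the genes. Alternatives were DESeq2 1.42.0, other size factors, fits without the count filter or the batch term, fits of a single batch, 1 fit of all libraries, and leaving libraries out. Leaving out libraries 860, 861, 864 and 865 together, 1136 or 870 was chosen after seeing the data. The values of 1 pathway gene are not reported here.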

Additional observations from a re-analysis of the deposited data

Results flagged for a closer look

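Rtp4 in library 1134, a young mApple vehicle liver, was 25.5 CPM, while the other 5 livers of its group had 11.9 to 14.6 CPM. On the log2(CPM + 1) scale its gap to the nearest liver took up 0.738 of the group's range, above Dixon's critical value of 0.625 for 6 samples. The other 4 genes in that liver lay inside the range of the group. Of 20 sets of a gene and a group that were checked this way, 1 stood out, and chance gives about 1 in 20.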

How the results depend on the processing

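No paired analysis was possible because the library numbers are unique and the labels give the groups no shared replicate numbers. The young comparison and the Myc ruxolitinib age comparison called the same number of genes or 1 more under all settings and with any 1 library left out (5 with Mx1, and 4). Calls beyond Mx2, Rsad2, Cmpk2 and Rtp4 were of Mx1 and are descriptions. Mx1 passed the filter through the vehicle group alone in the young comparison and failed it in the age comparison. For Myc against mApple under vehicle (4 called), 1 was called with no batch term, 0 in the first batch alone and 0 in the second, and 1 to 5 with 1 library left out. Under ruxolitinib (3 called), DESeq2 and the single fit of all libraries called 5, the first batch alone 0, and the fit without libraries 860, 861, 864 and 865 called 1, with 1 to 5 when 1 library was left out. In the first batch alone Mx2 was -0.22 there.

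In the vector by drug interaction Mx1 kept its sign (0.35 to 0.82), and the other 4 genes changed theirs under some settings. Rsad2 was -0.01 without the filter, -1.24 in the first batch, -0.07 without library 870 and -0.32 without library 1136. Mx2 was 0.22 with no batch term, 0.68 in the second batch and 0.09 without libraries 860, 861, 864 and 865. Rtp4 was -0.07 in the first batch and Cmpk2 0.09 in the second. With 1 library left out the ranges were -0.32 to 0.30 for Rsad2, -0.22 to 0.08 for Mx2 and -0.30 to 0.12 for Cmpk2. Without library 1136 the mApple age comparison had -0.46 for Rsad2 and -0.32 for Rtp4 (ranges with 1 library left out -0.46 to 0.97 and -0.32 to 0.50). Without it the combined old contrast had 0.46 for Mx1, 0.78 for Rsad2, 0.29 for Cmpk2 and 0.18 for Rtp4, and the lowest values with 1 library left out were -0.59, -0.67, -0.74 and -0.63. The cause was not tested.

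Counts over all genes moved by over 1.5 times under these settings. Ruxolitinib in old mApple livers called 53 genes, and 142 by DESeq2, 26 with no batch term, 6 and 11 in the first and second batch. In old Myc livers it called 75, and 168 by DESeq2, 320 in the single fit, 44 with no batch term, and 907 and 9 by batch. Myc under vehicle called 2544, and 1468 with no batch term, and 732 and 629 by batch. Myc under ruxolitinib called 2012, and 1033 with no batch term and 0 in the first batch. The mApple age comparison called 145, and 649 by DESeq2 and 71 without library 1136. With 1 library left out, the counts ran from 20 to 75 for ruxolitinib in old mApple livers, 48 to 83 in old Myc livers, and 22 (without library 1135) to 502 (without 1129) for the mApple age comparison, so the shares of all genes called in these 3 comparisons are themselves uncertain.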
